A study of Mus musculus with 6 samples.

Results

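The TNF superfamily was followed in the distal colon of Gm31629-/- and WT mice after injury with DSS (dextran sulfate sodium, a polymer that damages the colonic epithelium). Members were the rows of the deposited table whose mouse symbol began with Tnfsf or Tnfrsf and a number, or was Tnf, Lta, Ltb, Ltbr, Fas, Fasl, Cd27, Cd40, Cd40lg, Cd70, Eda, Edar, Eda2r, or Ngfr. This gave 46 of 27546 listed genes, of which 18 encode ligands, 27 encode receptors, and 1, Tnfsf13os, is an antisense transcript. The series held 6 RNA-Seq libraries of colon tissue from C57BL/6 mice aged 8 weeks, 3 from Gm31629-/- mice, which lack the gene of a long noncoding RNA, and 3 from WT littermates. Both groups drank 3% DSS for 7 days and were killed on day 8, so genotypes were compared under injury and no untreated mice were included. The labels give each library its own number, whereas the methods speak of RNA pooled from 3 mice per genotype, so the p-values below measure the spread between these libraries.

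Ligands of the TNF superfamily are mostly trimeric proteins on the surface of immune and stromal cells, many of which are also released by proteases. Their receptors either recruit TRAF adaptors and switch on NF-κB, or carry a death domain and can start apoptosis or necroptosis. In the gut, TNF drives inflammation, lymphotoxin and RANKL organise lymphoid tissue, BAFF and APRIL sustain B cells and plasma cells, and costimulatory receptors tune T cells.

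Levels were given as FPKM, fragments per kilobase of gene and scaled to the depth of the library, which can be compared between genes. Genes were tested with limma on log2(FPKM + 1) where the mean FPKM over the 6 libraries was at least 0.5, which 14657 genes and 31 members passed. The call threshold was an adjusted p (Benjamini-Hochberg) under 0.05 with a log2 fold change (Gm31629-/- minus WT) above 1 or below −1, and "rose" or "fell" is used below for an adjusted p under 0.05. On this scale the change of a gene with a low level is understated. The smallest exact permutation p for a single gene is 0.1 with 3 libraries in each group.

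The libraries held 18002800 to 18793200 fragments by the steps in the low values, and a value of 0 allows up to 3 fragments. Markers of several tissue layers and cell types differed between the groups. Summed FPKM of 10 smooth muscle markers was 1314 to 2035 in Gm31629-/- libraries and 25.6 to 45.3 in WT libraries, with 9 of 10 called higher. It was 54.2 to 190.1 against 2.77 to 5.33 for enteric neurons and glia, with 9 of 10 called higher and Elavl4 at 0 in all WT libraries. Macrophage markers summed to 625 to 1438 against 99.8 to 110.2, and B cell markers to 21 to 67.3 against 3.05 to 5.18. The 10 epithelial markers summed to 7371 to 8806 against 11890 to 12940, so epithelium was present in every library. Of these 10, Krt8 and Krt19 were called lower, and 6 had all Gm31629-/- values below all WT values. Epcam and Cdh1 had log2 fold changes of 0.0054 and −0.042. These sums do not show that both groups held the same layers of the colon wall. The 4 Y-linked genes examined were above 0 in Gm31629-/- library 1 alone, although the methods name male mice. Xist, the RNA of the inactive X chromosome in females, read 0.00606, 12.4, and 10.6 FPKM in Gm31629-/- libraries 1 to 3. It read 13.8, 9.7, and 8.35 in WT libraries 1 to 3. By these genes Gm31629-/- library 1 read as male and every other library as female. Sex was thus mixed within the Gm31629-/- group, and library 1 did not come from the same pool of RNA as libraries 2 and 3. Whether each library held RNA of a single mouse is not shown by these genes. Results that rest on Gm31629-/- library 1 are given with and without it.

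**Figure D1:**
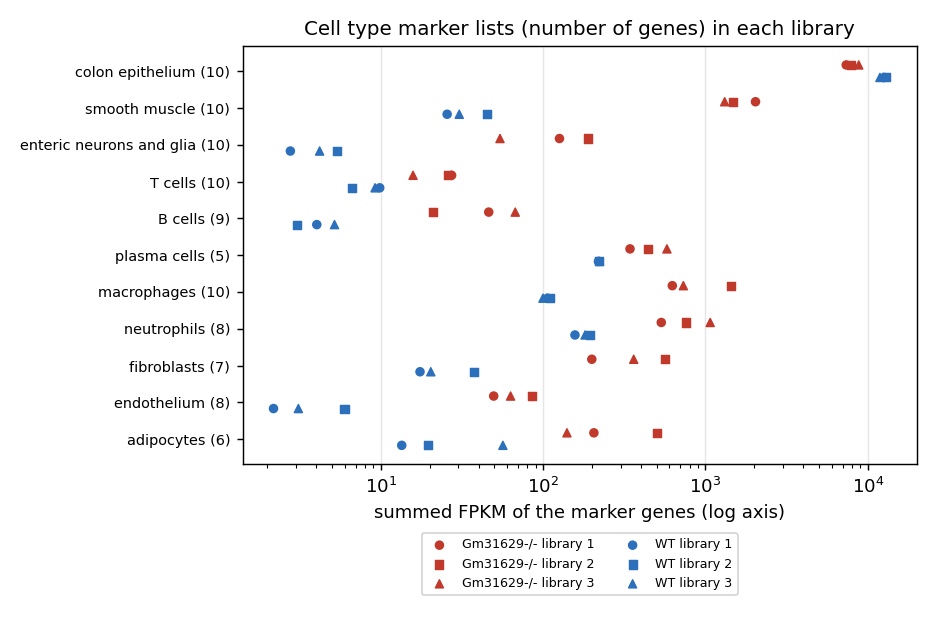
Summed FPKM of each cell type marker list (log axis), 1 point per library, for Gm31629-/- and WT libraries. The smooth muscle list reached at most 45.3 in WT libraries and at least 1314 in Gm31629-/- libraries, and the epithelial list was the one lower in all Gm31629-/- libraries.

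Of the 31 tested members, 11 were called higher and 0 lower in Gm31629-/- colon, where 18.4% of all tested genes were called higher and 4.64% lower. The 11 were Ngfr, Tnfrsf8, Ltb, Tnfrsf13b, Tnfsf11, Tnfsf12, Tnfrsf4, Tnfrsf11b, Cd40, Tnfrsf9, and Tnfrsf13c. In bulk tissue, a change in the number of cells of a type and a change in RNA per cell cannot be told apart. By the adjusted p alone, 13 rose, adding Tnfrsf25 and Tnfrsf17, where 28.9% of tested genes rose. Tnfrsf14, Tnfsf13, and Tnfrsf11a, 3 members, fell, where 14.6% of tested genes fell. The median log2 fold change was 0.57 over the tested members and 0.15 over all tested genes. After each library was rescaled by its median ratio these medians were 0.48 and −0.06. Then 10 of 30 tested members were called higher and 1 lower, beside 2232 and 1217 of 14516 genes. Before rescaling, the median log2(FPKM + 1) of the tested members had an SD of 0.39 between libraries of a group. The fold changes ran from −0.81 for Tnfrsf14 to 2.70 for Ngfr, and 25 of 31 were above 0. All 3 Gm31629-/- values lay above all WT values in 16 of the 31, where 36.3% of tested genes did so, and below them in 4, where 21.5% did.

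The filter bears on these counts. Of the 31 tested members, 9 passed it only through the Gm31629-/- mean, among them 6 of the 11 called, Ngfr, Tnfsf11, Tnfsf12, Tnfrsf13b, Tnfrsf13c, and Cd40, which therefore had to differ. The same holds for Tnfrsf25 and Tnfrsf17, which rose without being called, and for Cd27, which did not pass. The other 5 called members, Ltb, Tnfrsf8, Tnfrsf4, Tnfrsf11b, and Tnfrsf9, had a WT mean of at least 0.5. The 15 untested members had a mean FPKM of 0.0348 to 0.498. In 11 of these the 3 Gm31629-/- values lay above all WT values, as in 25.0% of all genes under the filter. They lay below in 0, as in 2.55% of those genes, and in 4 the groups overlapped.

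Receptors held most of the signal by level. Summed receptor FPKM was 264.9, 540.8, and 346.1 in Gm31629-/- libraries 1 to 3 and 283.2, 263.5, and 267.8 in WT libraries 1 to 3, and these ranges overlapped. Summed ligand FPKM was 44.5, 65.3, and 47.5 against 48.8, 23.7, and 26.9, which also overlapped. The members with the highest mean were Tnfrsf1a, Ltbr, Tnfrsf1b, Tnfrsf21, and Tnfrsf12a, and none of these 5 rose or fell by the test. Gm31629-/- library 2 held the highest of the 3 Gm31629-/- values in 20 of the 31 tested members. Library 1 held the lowest in 15.

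**Figure D2:**
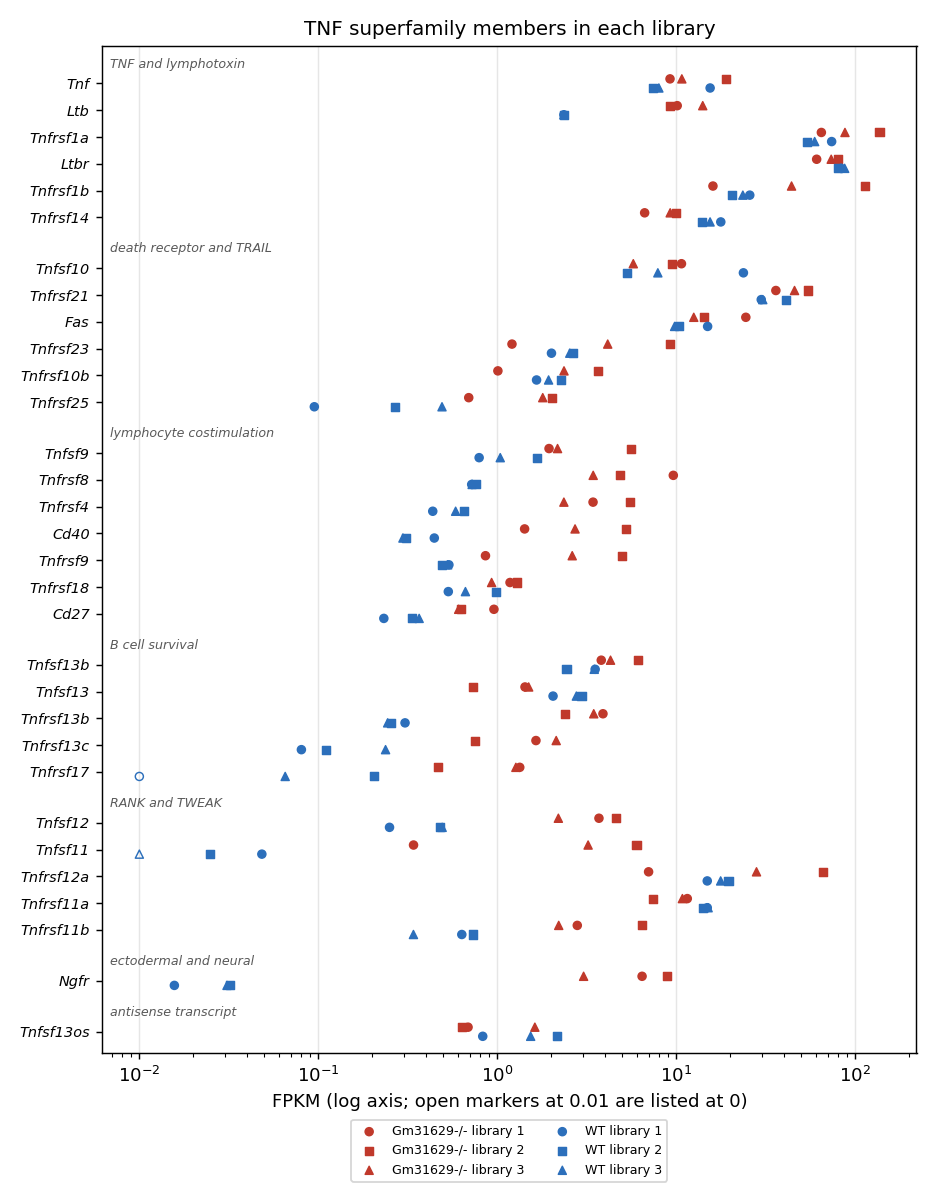
FPKM of the 31 tested members in each of the 6 libraries (log axis, 0 drawn as an open marker at the left), grouped by role, with Gm31629-/- libraries in red and WT libraries in blue. Ngfr was at most 0.0322 in every WT library and at least 3.03 in every Gm31629-/- library, while the ranges of Tnf overlapped.

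Tnf and the lymphotoxins lie side by side on chromosome 17 (GRCm38). The gap was 3.06 kb from Ltb (17:35194439-35196320, plus strand) to Tnf (17:35199381-35202007, minus strand) and 1.16 kb from Tnf to Lta. Only Ltb of these neighbours was called. The bases before the start of Ltb and Tnf are printed below, with those of Tnfrsf13b, a called receptor whose promoter holds the same motif. Each stretch is the 250 bases before the RefSeq start, and that of Ltb ends at base 182, since GENCODE starts the gene 68 bases earlier than RefSeq. Sequences are from RefSeq (GRCm38.p6), 5′ to 3′ on the strand of the gene, and capitals mark GGNNNTTCC on either strand, a core shared by many NF-κB sites.
Ltb, chr17:35194257-35194438, plus strand: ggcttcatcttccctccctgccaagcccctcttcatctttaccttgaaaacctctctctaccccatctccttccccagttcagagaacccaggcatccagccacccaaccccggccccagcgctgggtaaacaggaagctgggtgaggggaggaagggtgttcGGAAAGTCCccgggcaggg
Tnf, chr17:35202008-35202257, minus strand: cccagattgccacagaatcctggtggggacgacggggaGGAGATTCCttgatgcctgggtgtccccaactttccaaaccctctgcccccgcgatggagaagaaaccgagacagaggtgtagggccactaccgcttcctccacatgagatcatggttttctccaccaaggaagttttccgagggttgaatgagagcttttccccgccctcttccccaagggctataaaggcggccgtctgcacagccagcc
Tnfrsf13b, chr11:61126505-61126754, plus strand: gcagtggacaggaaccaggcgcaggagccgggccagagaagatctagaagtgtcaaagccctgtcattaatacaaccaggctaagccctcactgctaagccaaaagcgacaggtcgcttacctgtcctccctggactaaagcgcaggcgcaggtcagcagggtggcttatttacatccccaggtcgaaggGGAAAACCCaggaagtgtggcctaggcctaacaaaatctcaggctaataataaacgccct

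The match lay 87 bases before the RefSeq start in Ltb and 60 bases before it in Tnfrsf13b, in both read on the opposite strand. It lay 212 bases before the start in Tnf. RefSeq gave 39 promoters for 35 of the 46 members, and 8 of the 39, or 20.5%, held a match. Over all 32851 promoters of the same length, 15.7% held one. A match of letters is a description of the sequence and not of binding, and Tnf, which held one, was not called.

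Ltb encodes lymphotoxin beta, the membrane anchor of the lymphotoxin heterotrimer that signals through Ltbr. Its FPKM was 10.1, 9.19, and 14.0 in Gm31629-/- libraries 1 to 3 and 2.35, 2.34, and 2.35 in WT libraries 1 to 3. The groups did not overlap and the 3 WT values were nearly identical. The means were 11.1 ± 2.58 (SD, n = 3) and 2.35 ± 0.00463 (SD, n = 3), a ratio of 4.73, and the log2 fold change was 1.83 (standard error 0.18, adjusted p = 0.000599). Ltb was called in each of the 6 fits that left out 1 library. B cell markers, given above, were higher in the same libraries, and their part in the Ltb difference was not tested.

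Tnf itself read 9.22, 18.9, and 10.7 FPKM in Gm31629-/- libraries and 15.4, 7.42, and 7.99 in WT libraries. The groups overlapped, with WT library 1 above Gm31629-/- libraries 1 and 3, and the log2 fold change was 0.31 (standard error 0.34, adjusted p = 0.481). Lta, the soluble lymphotoxin subunit, was under the filter. It read 0.668, 0.118, and 1.61 against 0.156, 0.161, and 0.269 FPKM, with the lowest value of all in Gm31629-/- library 2.

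The main TNF receptors were abundant. Tnfrsf1a, the widely expressed receptor with a death domain, read 64.6, 136.4, and 87.5 FPKM against 73.7, 53.7, and 59.2 in WT libraries, and its log2 fold change was 0.57 (standard error 0.28, adjusted p = 0.138). Tnfrsf1b, the receptor without a death domain found mainly on immune and endothelial cells, read 16.0, 113.6, and 44.0 against 25.7, 20.5, and 23.5. Gm31629-/- library 1 lay below all WT libraries for Tnfrsf1b and library 2 was the highest by a wide margin. The log2 fold change of Tnfrsf1b was 0.88 (standard error 0.61, adjusted p = 0.273). Without Gm31629-/- library 1 it was 1.57 (adjusted p = 0.0189), and for Tnfrsf1a it was then 0.81 (adjusted p = 0.0369). They were, without Gm31629-/- library 2, 0.20 (adjusted p = 0.713) and 0.28 (adjusted p = 0.304). Of the Gm31629-/- libraries, library 2 was also highest and library 1 lowest in summed macrophage, fibroblast, and endothelial markers. The part of these cell types in the receptor values was not tested.

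Ltbr and Tnfrsf14 lay on the other side. Ltbr, the lymphotoxin receptor, read 60.8, 79.9, and 73.3 FPKM in Gm31629-/- libraries and 83.2, 80.3, and 87.2 in WT libraries. All 3 Gm31629-/- values were the lower ones, but the log2 fold change of −0.23 (standard error 0.15, adjusted p = 0.238) did not pass. Tnfrsf14, the receptor for LIGHT and a partner of the inhibitory receptor BTLA, read 6.65, 9.99, and 9.24 against 17.7, 14.0, and 15.4. It fell by 0.81 on the log2 scale (standard error 0.19, adjusted p = 0.0124), and the WT mean was 1.82 times the Gm31629-/- mean. Without WT library 1 its adjusted p was 0.0513. After rescaling by the median ratio its log2 fold change was −1.05 (adjusted p = 0.0055), past the call threshold, and that of Ltbr was −0.49 (adjusted p = 0.0403). The summed epithelial markers were lower in the same libraries, with 2 of 10 called lower, and their part in these values was not tested. Tnfsf14, the gene for LIGHT, was not tested at its level.

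Of the 10 genes of the Fas, TRAIL, and related death receptor group, 6 were tested and 0 were called, beside the 18.4% called higher and 4.64% called lower over all genes. Fas, the receptor that starts apoptosis on contact with Fas ligand, read 24.4, 14.3, and 12.5 FPKM against 14.9, 10.3, and 9.78 in WT libraries. The groups overlapped, and the log2 fold change was 0.48 (standard error 0.28, adjusted p = 0.196). It was 0.20 without Gm31629-/- library 1, the highest of the 6 (adjusted p = 0.476). Fasl, its ligand on cytotoxic lymphocytes, was under the filter at 0.729, 0.504, and 0.225 against 0.112, 0.201, and 0.0824 FPKM, with all Gm31629-/- values above all WT values. Tnfrsf25, a death domain receptor of T cells that binds TL1A, read 0.692, 2.02, and 1.79 against 0.0950, 0.268, and 0.491. Tnfrsf25 passed the filter only through the Gm31629-/- mean and so had to differ. It rose by 0.93 on the log2 scale (standard error 0.26, adjusted p = 0.0238), short of the fold threshold, and without Gm31629-/- library 1 by 1.19 (adjusted p = 0.00376). Of the 6 fits that left out a library, Tnfrsf25 passed only in that one, and its highest adjusted p in the others was 0.0842.

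Tnfrsf21, death receptor 6, was among the most abundant members at 36.0, 54.4, and 45.7 FPKM against 29.8, 40.9, and 30.4. Its groups overlapped through Gm31629-/- library 1 and WT library 2, and the log2 fold change was 0.41 (standard error 0.20, adjusted p = 0.137). For Tnfsf10 (TRAIL), its receptor Tnfrsf10b, and the decoy receptor Tnfrsf23, the log2 fold changes were −0.25, 0.10, and 0.53, and all 3 missed the threshold. Single libraries turned these values, as Tnfsf10 was 0.32 without WT library 1, Tnfrsf10b was −0.18 without Gm31629-/- library 2, and Tnfrsf23 was −0.0063 without Gm31629-/- library 2. Tnfrsf23 was 1.10 without Gm31629-/- library 1 (adjusted p = 0.0308). Tnfrsf23 lies in a row with the near copies Tnfrsf22 and Tnfrsf26 on chromosome 7, so reads could have been split among them. Tnfrsf22, Tnfrsf26, and Tnfsf15, the gene for TL1A, were not tested at their levels.

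Among costimulatory receptors, all 6 were tested and 4 were called higher, beside 18.4% of all tested genes, whereas only 1 of their 6 ligands reached the filter and 0 were called. Of the 6 receptors, Cd40, which was called, and Cd27, which was not, passed the filter only through the Gm31629-/- mean. Tnfrsf8 (CD30), found on activated lymphocytes, read 9.62, 4.87, and 3.43 FPKM in Gm31629-/- libraries and 0.719, 0.755, and 0.723 in WT libraries. The groups were far apart, the ratio of the means was 8.16, and the log2 fold change was 1.91 (standard error 0.31, adjusted p = 0.00335). It was 1.56 without Gm31629-/- library 1, its highest library (adjusted p = 0.00146). Tnfrsf8 lies 20.3 kb from Tnfrsf1b on chromosome 4, but its highest value was in Gm31629-/- library 1, where Tnfrsf1b was lowest.

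Tnfrsf4 (OX40), a receptor of activated and regulatory T cells, read 3.42, 5.48, and 2.35 FPKM against 0.436, 0.651, and 0.585. The groups did not overlap, the ratio was 6.73, and the log2 fold change was 1.56 (standard error 0.25, adjusted p = 0.00330). Its neighbour Tnfrsf18 (GITR), 9.55 kb away and known from the same cells, had a log2 fold change of 0.31 and missed the threshold (adjusted p = 0.175). Whether the neighbours differed from each other was not tested. T cell markers summed to 15.8 to 27.3 FPKM in Gm31629-/- libraries and 6.61 to 9.84 in WT libraries, with 3 of 8 tested markers called higher, and their part in these values was not tested.

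Cd40, which receives T cell help on B cells, macrophages, and dendritic cells, read 1.42, 5.22, and 2.72 FPKM against 0.444, 0.310, and 0.297. All Gm31629-/- values were above all WT values, the ratio was 8.90, and the log2 fold change was 1.5 (standard error 0.33, adjusted p = 0.01). Tnfrsf9 (CD137), a receptor of activated T cells and NK cells, read 0.858, 4.96, and 2.62 against 0.536, 0.490, and 0.528. Its groups did not overlap, with Gm31629-/- library 1 close to WT, and the log2 fold change was 1.17 (standard error 0.39, adjusted p = 0.0447). Tnfrsf9 passed the threshold in 1 of the 6 fits that left out a library, the fit without Gm31629-/- library 1, where its log2 fold change was 1.61 (adjusted p = 0.00326). Without Gm31629-/- library 2 it was 0.77 (adjusted p = 0.0757). After rescaling by the median ratio its adjusted p was 0.0557.

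Of their ligands, only Tnfsf9 reached the filter. Tnfsf9, the ligand of Tnfrsf9, read 1.94, 5.55, and 2.17 FPKM against 0.791, 1.67, and 1.04. The groups did not overlap, but the log2 fold change of 0.88 (standard error 0.33, adjusted p = 0.0676) missed the threshold. Cd40lg, the T cell ligand of Cd40, had 18 fragments over the 3 Gm31629-/- libraries and 1 over the WT libraries, a ratio of 18.0 (95% interval 2.85 to 751, exact, counting error only). Tnfsf4, the ligand of Tnfrsf4, had 1, 7, and 8 fragments in Gm31629-/- libraries 1 to 3 and 0 in each WT library. With 3 fragments taken as the limit over the WT group, the ratio of the totals was 5.34. This ratio does not cover the counting error of the 16 Gm31629-/- fragments. Tnfsf8, the ligand of Tnfrsf8, read 0.443, 0.641, and 0.215 FPKM against 0.114, 0.146, and 0.0839, with the groups apart. Cd70 and Tnfsf18 were also under the filter, and Cd70 and Tnfsf4 were the 2 members listed at 0 in every WT library.

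All 5 genes of the B cell survival group were tested. Its 3 receptors rose, where 28.9% of all tested genes rose, but each of them passed the filter only through the Gm31629-/- mean and so had to differ. Both ligands passed it with a WT mean of at least 0.5, and whether receptors and ligands differed from each other was not tested. Tnfrsf13b (TACI), a receptor of B cells and plasma cells for BAFF and APRIL, read 3.89, 2.39, and 3.46 FPKM in Gm31629-/- libraries and 0.305, 0.255, and 0.244 in WT libraries. The ratio of means was 12.1 and the log2 fold change was 1.73 (standard error 0.18, adjusted p = 0.000721). Tnfrsf13c, the BAFF receptor of B cells, read 1.64, 0.752, and 2.13 against 0.0804, 0.110, and 0.237, and its log2 fold change was 1.10 (standard error 0.23, adjusted p = 0.00927). Tnfrsf17 (BCMA), a receptor of plasma cells, read 1.33, 0.465, and 1.27 against 0, 0.204, and 0.0653. It rose by 0.87 (standard error 0.22, adjusted p = 0.0171), short of the fold threshold, and its adjusted p was 0.0624 without WT library 1 and 0.0640 without WT library 3.

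Gm31629-/- library 2 was the lowest Gm31629-/- library for all 3 receptors, unlike for most members. It was also the lowest Gm31629-/- library in summed B cell markers, of which 6 of 7 tested were called higher, and their part in these values was not tested. Plasma cell markers summed to 343 to 579 FPKM against 219 to 223, with 2 of 5 markers called higher. Without Gm31629-/- library 3, the log2 fold change of Tnfrsf13c was 0.92 (adjusted p = 0.0187), under the fold threshold.

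Tnfsf13 (APRIL), a plasma cell survival factor, read 1.43, 0.728, and 1.5 FPKM against 2.05, 2.95, and 2.76 in WT libraries. All Gm31629-/- values were below all WT values, and Tnfsf13 fell by 0.70 on the log2 scale (standard error 0.21, adjusted p = 0.03). It missed the threshold without Gm31629-/- library 2 (adjusted p = 0.0639), WT library 2 (adjusted p = 0.0960), or WT library 3 (adjusted p = 0.104). Tnfsf13b (BAFF), made largely by myeloid and stromal cells, read 3.81, 6.10, and 4.29 against 3.52, 2.43, and 3.48. The groups did not overlap, but the log2 fold change of 0.46 (standard error 0.21, adjusted p = 0.115) did not pass.

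Tnfsf12 (TWEAK) lies 465 bases from Tnfsf13 on chromosome 11 and moved the other way. Tnfsf12 reached the filter only through the Gm31629-/- mean and so had to differ. It read 3.70, 4.58, and 2.19 FPKM against 0.25, 0.477, and 0.492, with a ratio of means of 8.59. The groups were well apart, and the log2 fold change was 1.64 (standard error 0.23, adjusted p = 0.00204). The quotient of Tnfsf12 to Tnfsf13 FPKM was 2.59, 6.29, and 1.47 in Gm31629-/- libraries and 0.122, 0.162, and 0.178 in WT libraries, so the more abundant of these neighbours was Tnfsf12 in each Gm31629-/- library and Tnfsf13 in each WT library. The antisense transcript Tnfsf13os overlaps both, and without a stated strand its reads cannot be told apart from theirs. It had a log2 fold change of −0.34 (adjusted p = 0.344).

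Tnfrsf12a (Fn14), the injury-induced receptor of TWEAK, read 7.00, 66.1, and 28.0 FPKM against 14.9, 19.6, and 17.7. Gm31629-/- library 1 lay below all WT libraries and libraries 2 and 3 above them, and the log2 fold change was 0.45 (standard error 0.68, adjusted p = 0.617). It was 1.27 without Gm31629-/- library 1 (adjusted p = 0.0295) and −0.26 without library 2 (adjusted p = 0.704).

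Of the RANK system, the ligand and the decoy rose and the receptor fell in the main fit. The ligand and the receptor each passed in only 1 of the 6 fits that left out a library. The ligand reached the filter only through the Gm31629-/- mean and so had to differ. Tnfsf11 (RANKL; 14:78277445-78308043, minus strand), which induces M cells and osteoclasts, read 0.340, 5.99, and 3.21 FPKM in Gm31629-/- libraries and 0.0484, 0.0248, and 0 in WT libraries. These were 14, 247, and 132 fragments against 2, 1, and 0, a ratio of 131 (95% interval 44.6 to 639, exact, counting error only). The groups did not overlap but the Gm31629-/- libraries were unlike each other, and the log2 fold change was 1.73 (standard error 0.54, adjusted p = 0.0371). Of the 6 fits that left out a library, Tnfsf11 passed only in that without Gm31629-/- library 1, at 2.41 (adjusted p = 0.000796). Without Gm31629-/- library 2 it was 1.21 (adjusted p = 0.0744).

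Tnfrsf11a (RANK), the receptor of RANKL, read 11.5, 7.38, and 10.8 FPKM against 14.9, 14.1, and 15.1. All Gm31629-/- values were the lower ones and the log2 fold change was −0.54 (standard error 0.18, adjusted p = 0.0476). Of the 6 fits that left out a library it passed only without Gm31629-/- library 1, and its highest adjusted p was 0.138. Tnfrsf11b (osteoprotegerin), a secreted decoy that binds RANKL, read 2.80, 6.44, and 2.20 against 0.633, 0.729, and 0.340. The groups did not overlap, the ratio was 6.72, and the log2 fold change was 1.53 (standard error 0.32, adjusted p = 0.00886). The quotient of Tnfsf11 to Tnfrsf11b FPKM was 0.122, 0.929, and 1.46 in Gm31629-/- libraries and 0.0764, 0.0341, and 0 in WT libraries. The ligand thus exceeded its decoy in Gm31629-/- library 3 alone. Summed fibroblast markers were 199.5 to 565 FPKM in Gm31629-/- libraries, with library 1 lowest and library 2 highest, and 17.4 to 37.6 in WT libraries, and their part in these values was not tested.

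Ngfr, the low-affinity neurotrophin receptor of neurons, glia, and some stromal cells, had the largest fold change of the tested members. Ngfr reached the filter only through the Gm31629-/- mean and so had to differ. Its FPKM was 6.43, 8.82, and 3.03 in Gm31629-/- libraries and 0.0157, 0.0322, and 0.0309 in WT libraries. These values were 408, 561, and 192 fragments against 1, 2, and 2, a ratio of 233 (95% interval 99.3 to 717, exact, counting error only). The log2 fold change was 2.70 (standard error 0.32, adjusted p = 0.00102), and it was 2.42 to 3.06 when single libraries were left out. Ngfr (ENSMUSG00000000120) lies at 11:95568818-95587735 on the minus strand. The markers of enteric neurons and glia and of smooth muscle were higher in the same libraries, and their part in the Ngfr difference was not tested. The 4 other genes of the ectodermal and neural group, Eda, Edar, Eda2r, and Tnfrsf19, were under the filter, with at most 0.619 FPKM in any library.

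**Figure D3:**
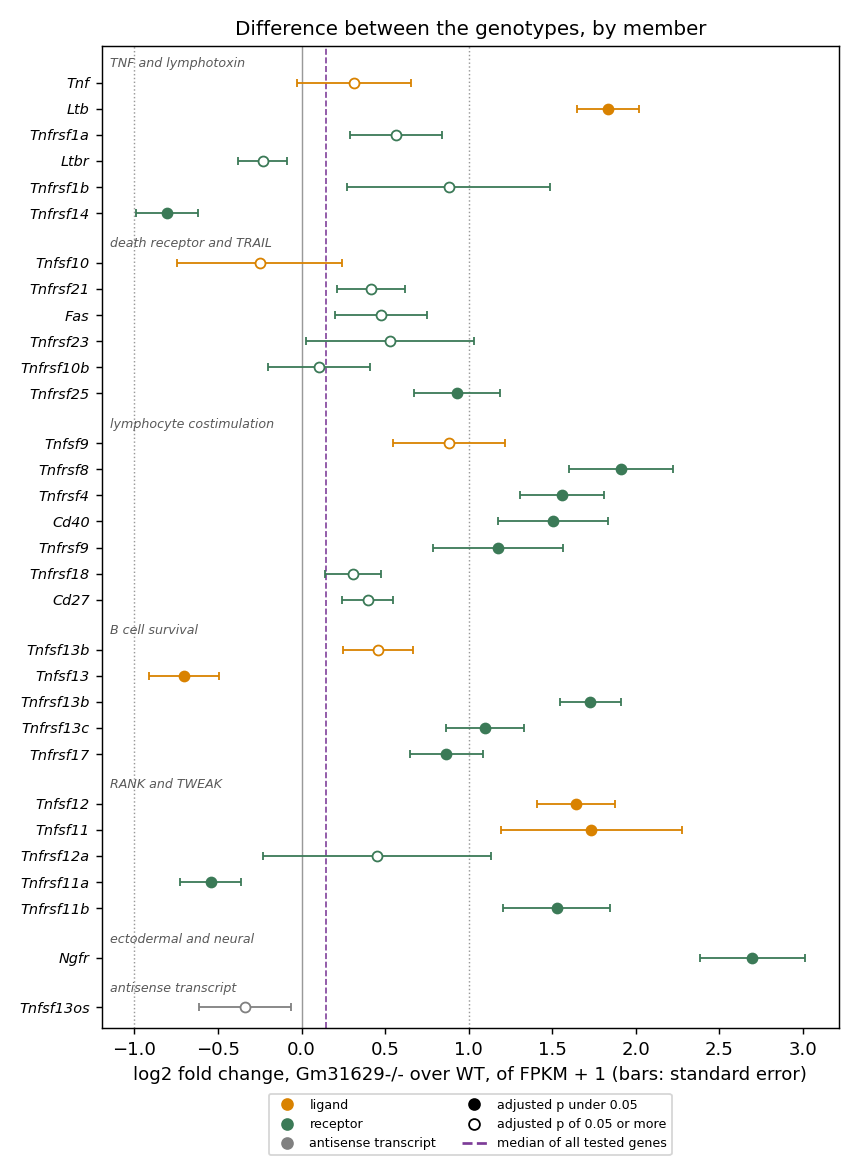
Log2 fold change (Gm31629-/- minus WT, log2(FPKM + 1) scale) of the 31 tested members with the limma standard error as bars, grouped by role, filled where the adjusted p was under 0.05. Ngfr is highest at 2.70 and Tnfrsf14 lowest at −0.81, dotted lines mark 1 and −1, and a dashed line marks the median of all tested genes.

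Leaving out Gm31629-/- library 1, the library with Y-linked transcripts, gave 16 members called higher, which included all 11 and added Tnfrsf12a, Tnfrsf1b, Tnfrsf23, Tnfrsf25, and Tnfsf9. Of all 14657 tested genes, 2705 were called higher in that fit, beside 2704 with all 6 libraries. The median log2 fold change of the tested members was then 1.04. Each of Ngfr, Tnfrsf8, Ltb, Tnfrsf13b, Tnfsf12, Tnfrsf4, Tnfrsf11b, and Cd40 was called in all 6 fits that left out 1 library, and these were 8 of the 11. Of these 8, Ngfr, Tnfrsf13b, Tnfsf12, and Cd40 passed the filter only through the Gm31629-/- mean. The filter was set over all 6 libraries before 1 was left out, so these fits keep that selection.

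Signalling partners and regulators of the receptors were examined with a list of 39 genes. It held, among others, TRAF adaptors, death domain proteins, caspase regulators, ubiquitin ligases, IκB kinases, and NF-κB subunits and inhibitors. Adam10 and Adam17, proteases that release proteins from the cell surface, were also on it. Of 38 tested, 6 or 15.8% were called higher and 0 lower, below the 18.4% and 4.64% over all tested genes. By the adjusted p alone 16 rose and 3, Fadd, Tab1, and Rnf31, fell, where 28.9% and 14.6% of all tested genes did. The median log2 fold change was 0.34, beside 0.15 over all tested genes. The 6 called were Nfkbie, an IκB inhibitor (log2 fold change 1.59, adjusted p = 0.00811); Birc2 and Birc3, ubiquitin ligases bound to TRAF2 (1.21, adjusted p = 0.00198, and 1.15, adjusted p = 0.00269); Tnfaip3, the A20 brake on NF-κB (1.17, adjusted p = 0.0103); Traf1, an adaptor (1.12, adjusted p = 0.00857); and Rel, an NF-κB subunit (1.08, adjusted p = 0.0401). After rescaling by the median ratio, only Nfkbie kept its call, at 1.37 (adjusted p = 0.0129). Birc2, Birc3, Tnfaip3, and Traf1 were then 0.91 to 0.99 with adjusted p of 0.00371 to 0.0230, just under the fold threshold, and Rel was 0.89 (adjusted p = 0.058). Then 1 gene, the death domain adaptor Fadd, was called lower at −1.05 (adjusted p = 0.00162). Without Gm31629-/- library 2, Birc2, Birc3, and Nfkbie, 3 genes, were called higher and the necroptosis kinase Ripk3 was called lower. Rel was called in 1 of the 6 fits that left out a library, that without Gm31629-/- library 1.

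**Figure D4:**
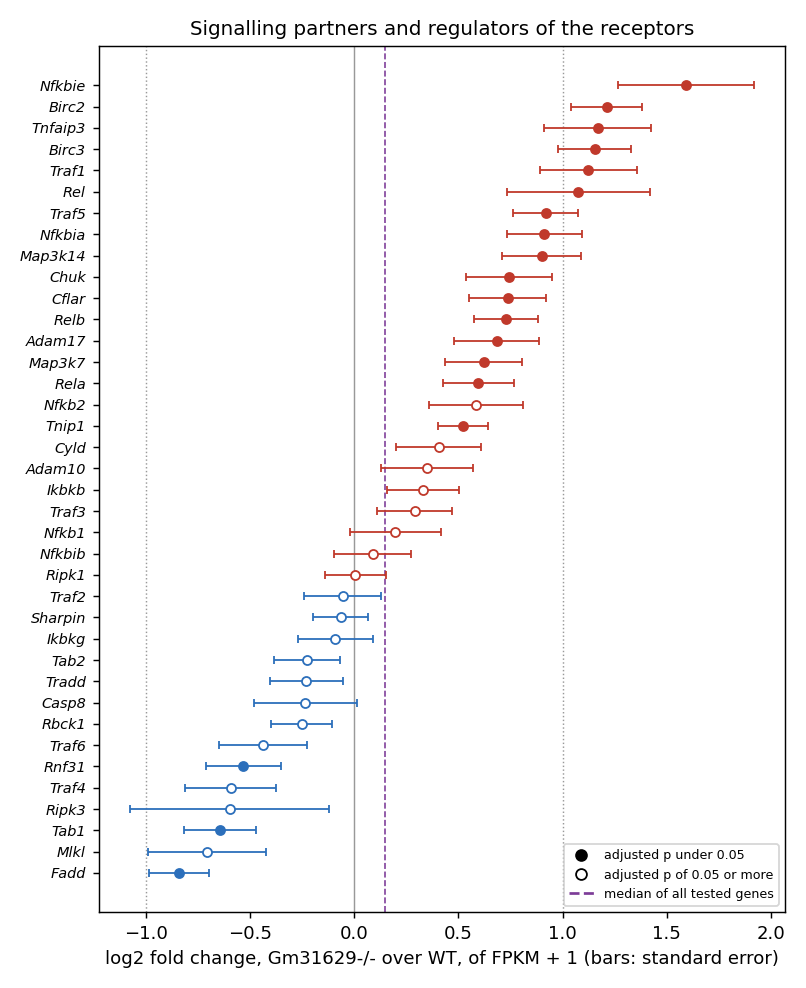
Log2 fold change (Gm31629-/- minus WT, log2(FPKM + 1) scale) of the 38 tested partner genes with the limma standard error as bars. The 6 genes past the upper call threshold of 1 run from Rel at 1.08 to Nfkbie at 1.59, and 0 genes pass the lower threshold of −1.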

How the data were processed

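RNA-Seq libraries were prepared from total RNA of the colon with the Illumina TruSeq RNA kit. The submitters' processing notes name HISAT2 2.1.0, HTSeq 0.6.0, and GRCm38, and the annotation release and strand setting are not given in the sources used here. The authors deposited 1 table of FPKM values, with a column per labelled sample. The study called genes with DEGseq, which was not repeated on FPKM.

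GENCODE M21 (GRCm38) gave symbols, positions, and the exon length of 27488 of the 27546 identifiers. Gm31629 itself was not analysed here. Samples were grouped by genotype label. Genes whose mean FPKM reached 0.5 were fitted on log2(FPKM + 1) with limma 3.58.1 in R 4.3.3 (lmFit and eBayes with a trend), adjusted by Benjamini-Hochberg over 14657 genes. Calls needed an adjusted p under 0.05 and an absolute log2 fold change over 1. Fragments were recovered from the size of 1 fragment and gene length, and 96.3% to 97.3% of values up to 20 fragments came out whole within 0.1 in each library. Intervals cover counting error only, and the ratio for a WT count of 0 covers that of the WT count alone. Chi-square per gene between replicates was 34.1 to 49.7 in WT and 112 to 169 in Gm31629-/- libraries, so none was a repeat of another. The scripts were tested on simulated data.

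Named were each called member, each with an adjusted p under 0.05, the 5 with the highest mean, Tnf, Lta, Ltb, Fasl and their receptors, ligand or receptor partners of called members, and the 6 called partner genes with the largest change. Other named genes were chosen after their values were seen. Members and lists were chosen with earlier results of these data known. The 14 alternatives to the processing were voom on recovered fragments, eBayes without a trend, a pseudocount of 0.1, a filter at 5 FPKM or none, rescaling by the median ratio or to the same sum, a replicate block, and leaving out each library. The adjusted p alone was also used. Promoters were taken from RefSeq, and figures were drawn with matplotlib 3.10.9.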

Additional observations from a re-analysis of the deposited data

How the results depend on the processing

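The 11 members called higher were 8 to 16 when single libraries were left out, where 2285 to 2892 of 14657 genes were. Among genes of mean FPKM 5 or more, 1 of 11 tested members was called higher, beside 956 of 7242 genes. Without the filter 9 of 46 were called higher, beside 2537 of 27546 genes, and with voom 12 of 31, beside 3651 of 14647. The 0 members called lower became 1 with a pseudocount of 0.1 (Tnfsf13), with the median ratio (Tnfrsf14), and with voom (Tnfsf13), and 3 by adjusted p alone. The median log2 fold change of the members was 0.44 to 1.04 when single libraries were left out. The 6 partner genes called higher were 1 with the median ratio, 16 by adjusted p alone, and 3 to 7 without single libraries. The 0 partner genes called lower became 1 with a pseudocount of 0.1, with the median ratio, and with voom, 3 by adjusted p alone, and 0 to 1 without single libraries. Tnfrsf12a reversed to −0.26 without Gm31629-/- library 2, and its range without single libraries was −0.26 to 1.27. The cause of these changes was not tested. The 25 tested members named by the rule above had 335 values under the alternatives. Of these values, 293 kept direction and side of the threshold, 35 no longer passed, 6 newly passed, and 1 reversed. Tnfsf10, Tnfrsf10b, and Tnfrsf23 lay outside these 25 and changed sign without single libraries, as given above. Tnfrsf10b was also −0.07 after the median ratio.

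Same-numbered libraries did not deviate together (correlations 0.0358, −0.108, and 0.0141), and the main fit took the libraries as unpaired. With 3 libraries in each group, these correlations cannot exclude a pairing. With the replicate block 11 members were called higher, the same 11, while Tnfrsf11a (adjusted p = 0.0644) and Tnfsf13 (adjusted p = 0.0653) no longer passed and Tnfsf9 did (adjusted p = 0.0281). Over all genes, 79.9% of calls were higher as deposited and 64.7% after the median ratio, where the median log2 fold change moved from 0.15 to −0.06. Depth limits the 15 untested members, where a value rests on few fragments.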

Other observations

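Other quotients between neighbouring or paired members also varied by library. The quotient of Ltb to Tnf FPKM was 1.10, 0.485, and 1.31 in Gm31629-/- libraries 1 to 3 and 0.153, 0.316, and 0.295 in WT libraries 1 to 3, and the groups did not overlap. The quotient of Tnfrsf1b to Tnfrsf1a was 0.248, 0.833, and 0.503 against 0.349, 0.383, and 0.397, with Gm31629-/- library 1 below and libraries 2 and 3 above all WT libraries. Both quotients were chosen after the values were seen and were not tested.

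Eda, the ligand of ectodermal development and a member under the filter, had 181 fragments over the Gm31629-/- libraries and 8 over the WT libraries, a ratio of 22.7 (95% interval 11.3 to 53.3, exact, counting error only). Tnfrsf26, a receptor with near copies beside it, had 105 against 7, a ratio of 15.0 (95% interval 7.04 to 38.3). Both were named after their values were seen, and these intervals do not cover the spread between libraries.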
